A study of Homo sapiens with 7 samples.

Results

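The BCL2 family decides whether the outer membrane of the mitochondrion stays closed. The genes described here are 10 of its members that are not among the usual targets of p53, all found by symbol among the 59251 rows of a gene count table. They are the survival genes MCL1, BCL2L1, BCL2 and BCL2A1, the pore-forming gene BAK1, and the BH3-only genes BCL2L11, BID, BAD, BIK and HRK. Of the 10, 9 passed the filter on low counts and were tested, and BCL2A1 did not. All cells were H9, an established human embryonic stem cell line. They were grown in RSeT, a medium for the naive pluripotent state, and transfected with guide RNA plasmids. The DJL1 group (n = 3 libraries) and the CTRL group (n = 4 libraries) are told apart by the sample titles. The series as a whole concerns LINE1 elements beside the ribosomal DNA arrays, at their distal junctions. DJL1 and CTRL cells alike were kept in 10 nM DZNep, which lowers histone methylation, and 5 nM TSA, which blocks histone deacetylases. In the initial 16 h they received the survival cocktail CEPT, which contains 5 µM Emricasan, a pan-caspase inhibitor, together with 50 nM Chroman 1, polyamines and 0.7 µM Trans-ISRIB. RNA was taken 48 h after transfection, directly by the design text and after cell sorting by the sample protocol. The labels used here name neither the content of the CTRL plasmids nor the protein that the guides direct. They also do not say whether libraries of a group came from separate cultures, so p-values measure the spread between these libraries, which may be technical.

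As background, BAK1 and its relative BAX form the pores through which cytochrome c leaves the mitochondrion and starts the caspase cascade. The survival proteins hold them in check by gripping a short helix, the BH3 region. The BH3-only proteins are named for that helix and occupy the same groove with it, which frees the pore formers. Human embryonic stem cells are known to be primed for this form of death, and MCL1 is a survival protein they depend on.

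The BH3 region is shown here as DNA because a short pattern for it was found in survival genes, BAK1 and BH3-only genes alike. A script searched the longest coding sequence of each gene in GENCODE release 29 for a leucine codon, any 3 codons, a glycine, alanine or serine codon, and an aspartate codon. The 24 bases from the leucine codon onwards are printed with the codons that define the pattern in capitals. Of the 10 genes 9 held a match. BID held 2 matches and the one shown, chosen by hand, begins at codon 136. BCL2A1 held no match to these letters.
MCL1: TTAcgacgggttGGGGATggcgtg
BCL2L1: CTGagggaggcaGGCGACgagttt
BCL2: CTCcgccaggccGGCGACgacttc
BAK1: CTCgccatcatcGGGGACgacatc
BCL2L11: TTGcggcgtattGGAGACgagttt
BID: CTCgcccaggtcGGGGACagcatg
BAD: CTCcggaggatgAGTGACgagttt
BIK: CTGgcctgcatcGGGGACgagatg
HRK: CTCaaggcgctaGGCGACgagctg
Between pairs of these 9 stretches, 9 to 19 of the 24 bases were the same, with BAK1 and BIK the closest pair. The count includes the codons in capitals, which the search required, so part of the likeness follows from the search.

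Total counts ran from 34634882 to 37795742 in the DJL1 libraries and from 62277489 to 76691997 in the CTRL libraries. Depth therefore differed between the groups without overlap. The spread between libraries differed too, with a common coefficient of variation of 13.8% within DJL1 and 3.46% within CTRL. The edgeR test below uses a shared estimate of spread for both groups. By limma-voom, 13628 genes were called with a shared variance and 12082 with a variance per group. In the latter fit 5 members were called higher, and BCL2L1 was not called (adjusted p = 0.065). Markers of pluripotent cells were present, with all 10 at 1 CPM (reads of a gene as a part of its library total, scaled by TMM to a common size) or more in both groups. Their summed level was 8526 to 9405 CPM in DJL1 libraries and 9901 to 10091 CPM in CTRL libraries. Of 12 fibroblast or feeder markers, 10 reached 1 CPM in DJL1 and 8 in CTRL. Their sum was 1082 to 1190 CPM in DJL1 against 686 to 713 CPM in CTRL. COL1A1 averaged 484 CPM in DJL1 and 241 CPM in CTRL, FN1 292 and 186 CPM, and COL1A2 219 and 168 CPM. TAGLN went the other way, at 7.22 CPM in DJL1 and 11.7 CPM in CTRL, and DCN and LUM were at 0.12 CPM or less in either group. Of 10 blood markers, 6 reached 1 CPM in either group, with sums of 109.5 to 119 CPM in DJL1 and 107 to 114 CPM in CTRL, most of it from LCP1 (88.5 CPM in DJL1 and 93.8 CPM in CTRL). By the test below, 8 of the 10 pluripotency markers were lower in DJL1 and none higher (by edgeR, and 0 higher at an unadjusted p under 0.05, by DESeq2 and by limma-voom), and of 10 tested fibroblast markers 8 were higher and 1 lower. Of 8 tested blood markers 4 were higher (LAPTM5, SPI1, CD14 and CORO1A) and none lower, and 0 were lower at an unadjusted p under 0.05, by DESeq2 or by limma-voom too. With the counts of every library thinned to the smallest total, BCL2 (log2 fold change 1.31), BIK (0.94), BCL2L11 (0.46), BAK1 (0.22) and MCL1 (0.13) were still called higher, and BCL2L1 (-0.12, edgeR adjusted p = 0.069) was not called. The part of the marker differences in the results below was not tested. In bulk RNA, fewer cells of a type and less RNA per cell cannot be told apart.

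Among the 9 tested members, BIK and BCL2 rose most, BCL2L11 and BAK1 rose by less, and the others moved little or not detectably. Tested with edgeR (quasi-likelihood, Benjamini-Hochberg adjustment over all 26062 genes that passed the filter), 5 of the 9 tested members were higher in DJL1 and 1 was lower. Over all genes tested, 52.0% were called in either direction, 27.0% as higher and 25.1% as lower, so a call by itself sets no member apart. The median log2 fold change was 0.14 over the 9 members and 0.01 over all genes tested. DJL1 and CTRL values did not overlap for 7 of the 9 members, 6 with DJL1 higher and 1 with DJL1 lower, against 53.6% of all genes tested, 27.4% higher and 26.2% lower.

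**Figure D1:**
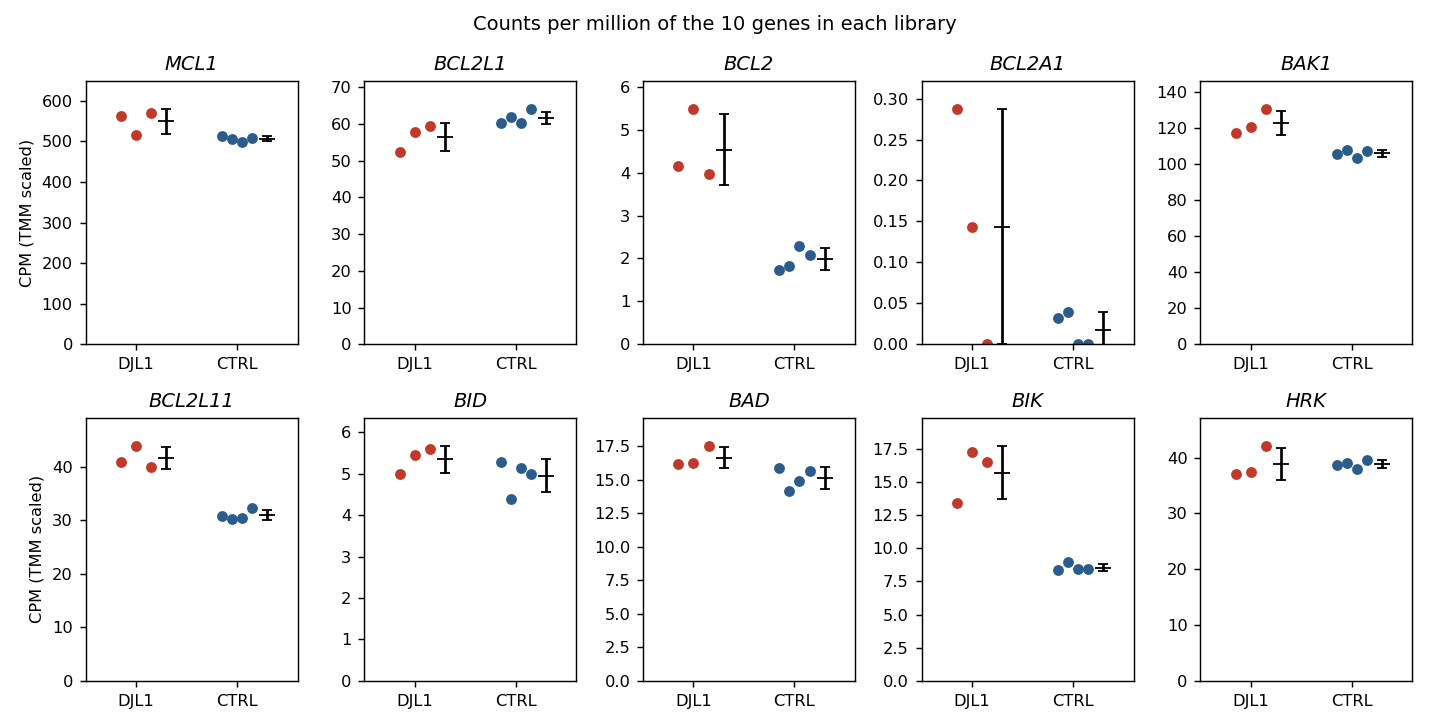
Level of each of the 10 genes in TMM-scaled CPM (vertical axes, each from 0) in the 3 DJL1 libraries (red) and the 4 CTRL libraries (blue), with black marks for mean ± SD. BCL2, BCL2L11 and BIK stand clearly higher in every DJL1 library, the groups lie close together for MCL1, BCL2L1, BID, BAD and HRK, and BCL2A1 is near 0 throughout.

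Among the tested survival genes, BCL2 itself had the largest change. BCL2, on chromosome 18 (63123346 to 63320090, GRCh38.p14), encodes the founding survival protein of the family. It stood at 4.15, 5.48 and 3.97 CPM in the DJL1 libraries and at 1.73, 1.83, 2.28 and 2.09 CPM in the CTRL libraries. Every DJL1 value lay above every CTRL value. The log2 fold change was 1.19 ± 0.16 (SE), a 2.28-fold difference with a 95% interval of 1.79 to 2.90-fold (edgeR, adjusted p = 1.7e-05). These levels rest on 147 to 192 counts a library in DJL1 and 108 to 142 in CTRL, so BCL2 was the rarest member that could be tested.

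MCL1, on chromosome 1 (150574558 to 150579610), encodes a short-lived survival protein and was by far the most abundant member. It stood at 564, 515 and 569 CPM in DJL1 libraries, against 513, 506, 499 and 509 CPM in CTRL libraries. DJL1 replicate 2 lay only just above the highest CTRL library, while the other DJL1 libraries were clearly above it. The log2 fold change of 0.12 ± 0.04 (SE) passed the test (edgeR, adjusted p = 0.025), a 1.08-fold difference with a 95% interval of 1.02 to 1.15-fold. The call was lost without CTRL replicate 2, 3 or 4 or DJL1 replicate 1 or 3 (log2 fold change 0.08 to 0.12, adjusted p = 0.052 to 0.104) and without the filter on low counts (adjusted p = 0.11). It was kept in 9 of 16 other ways of processing. In the authors' deposited table MCL1 has a log2 fold change of 0.13 and an adjusted p of 0.0036, which passes the same threshold.

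BCL2L1, on chromosome 20 (31664452 to 31723963), encodes both the survival form BCL-XL and a shorter death-promoting form, and gene counts cannot tell them apart. It was the one member called lower. It stood at 52.3, 57.8 and 59.3 CPM in DJL1 libraries and at 60.3, 61.9, 60.4 and 64.0 CPM in CTRL libraries. DJL1 replicate 3 lay just under the lowest CTRL library, so the groups were adjacent rather than apart. The log2 fold change was -0.13 ± 0.05 (SE; edgeR, adjusted p = 0.043), with a 95% interval of -0.23 to -0.02. In the authors' deposited table BCL2L1 has a log2 fold change of -0.11 and an adjusted p of 0.052, which misses the same threshold. The call was also lost without any 1 of the CTRL libraries or DJL1 replicate 1 (log2 fold change -0.14 to -0.08, adjusted p = 0.056 to 0.14). Exons of BCL2L1 overlap those of the antisense gene ABALON over 1224 bases. A row named BCL2L1-AS1 stood at 1.03 ± 0.20 CPM in DJL1 and 1.31 ± 0.09 CPM in CTRL (SD). Whether both symbols name the same gene was not checked.

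BCL2A1, on chromosome 15 (79960892 to 79971196), is a survival gene known mainly from blood cells. It had 11, 5 and 0 counts in the DJL1 libraries and 2, 3, 0 and 0 counts in the CTRL libraries. Both groups thus include a library with none, and 3 counts correspond to 0.08 to 0.09 CPM in DJL1 libraries and 0.04 to 0.05 CPM in CTRL libraries. Without the filter on low counts its log2 fold change was 2.80 with an adjusted p of 0.079 (edgeR). That estimate is large but rests on very few counts, and it missed the threshold at this depth. Among blood markers, PTPRC was at 0.14 CPM in DJL1 and 0.06 CPM in CTRL, whereas LAPTM5 was at 5.29 CPM in DJL1 and 1.40 CPM in CTRL, SPI1 at 3.15 CPM in DJL1 and 1.47 CPM in CTRL, CD14 at 2.69 CPM in DJL1 and 1.59 CPM in CTRL, and CORO1A at 12.1 CPM in DJL1 and 8.73 CPM in CTRL. The part of these markers in the BCL2A1 counts was not tested.

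Within each library, the make-up of the survival genes can be given without any scaling between libraries. As counts per kb of exon, MCL1 made up 88.0%, 85.8% and 86.9% of the summed survival genes in DJL1 libraries, against 85.5%, 85.0%, 85.1% and 84.7% in CTRL libraries. BCL2L1 made up 12.8 ± 1.06% in DJL1 and 14.8 ± 0.35% in CTRL (SD), without overlap. BCL2 held 0.25 ± 0.06% in DJL1 and 0.12 ± 0.02% in CTRL, so even its 2.28-fold difference left it a trace within the sum of the 4 members. BCL2L2, which also encodes a survival protein, is outside that sum. It stood at 2.73 CPM per kb in DJL1 and 3.25 in CTRL, against 0.39 and 0.17 for BCL2. No test is given, since 3 libraries against 4 cannot reach an exact 2-sided permutation p below 0.0571. The lengths are those of GENCODE exons, which may not be the ones counted by the authors, and with raw counts in place of counts per kb BCL2 held 0.75% in DJL1 and 0.35% in CTRL.

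**Figure D2:**
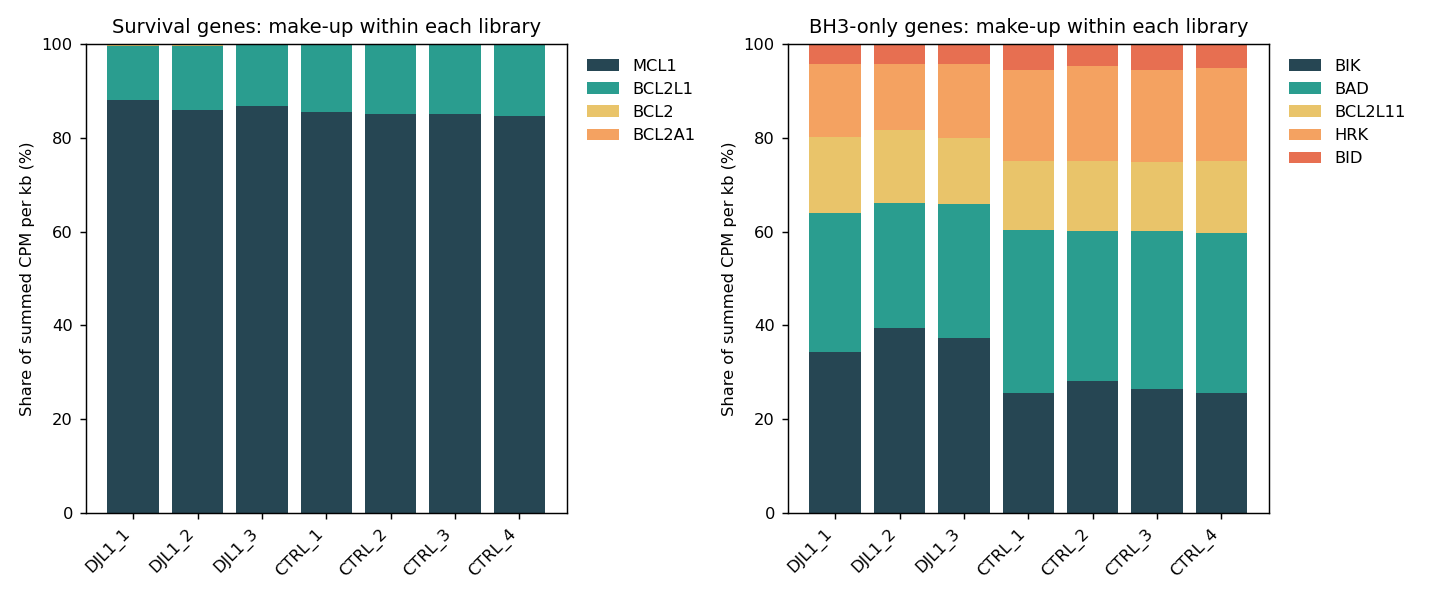
Share of each gene (percent of the summed CPM per kb, vertical axis) among the 4 survival members (left) and the 5 BH3-only members (right), with 1 bar for each library, DJL1 to the left of CTRL. MCL1 fills 84.7% or more of every bar on the left, and on the right the BIK segment is 34.3 to 39.4% in DJL1 libraries and 25.5 to 28.2% in CTRL libraries.

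BAK1, on chromosome 6 (33572552 to 33580276), encodes the pore former that sits in the mitochondrial membrane of healthy cells. It was at 117, 121 and 130 CPM in DJL1 libraries and at 105, 108, 103 and 107 CPM in CTRL libraries. All DJL1 values were above all CTRL values. The log2 fold change was 0.21 ± 0.04 (SE; edgeR, adjusted p = 6.2e-04), a 1.16-fold difference with a 95% interval of 1.09 to 1.24-fold. BAK1 has a pseudogene copy in the table, BAK1P1, at 40.3 ± 2.33 CPM in DJL1 and 36.0 ± 2.32 CPM in CTRL (SD). Reads of the gene and this copy may have been split, so the BAK1 level is uncertain.

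Among the BH3-only genes, BIK had the smallest adjusted p of all members. BIK, on chromosome 22 (43110750 to 43129712), encodes a BH3-only protein of the endoplasmic reticulum. It stood at 13.4, 17.2 and 16.5 CPM in DJL1 libraries, against 8.34, 8.97, 8.45 and 8.42 CPM in CTRL libraries. The groups were far apart, with the lowest DJL1 library well over the highest CTRL library. The log2 fold change was 0.88 ± 0.09 (SE; edgeR, adjusted p = 9.0e-07), a 1.84-fold difference with a 95% interval of 1.61 to 2.10-fold. BCL2L11, on chromosome 2 (111120914 to 111168445), encodes BIM, which binds every survival protein of the family. It was at 40.8, 43.9 and 39.9 CPM in DJL1 libraries and at 30.8, 30.3, 30.4 and 32.3 CPM in CTRL libraries, again without overlap. Its log2 fold change of 0.43 ± 0.05 (SE; edgeR, adjusted p = 5.4e-06) is a 1.34-fold difference with a 95% interval of 1.24 to 1.45-fold. Exons of BCL2L11 overlap those of the antisense gene MIR4435-2HG over 727 bases. Smaller overlaps with a gene on the opposite strand exist for BAK1 (GGNBP1, 91 bases) and BAD (GPR137, 104 bases). The strand setting of the counting is not given.

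BAD, BID and HRK did not pass the test. BAD, on chromosome 11 (64269828 to 64284704), encodes a BH3-only protein that growth factor signalling holds inactive by phosphorylation. It was at 16.2, 16.2 and 17.5 CPM in DJL1 libraries and at 15.8, 14.1, 14.9 and 15.6 CPM in CTRL libraries. Its log2 fold change was 0.14 with a 95% interval of -0.01 to 0.29 (edgeR, adjusted p = 0.11), although the groups did not overlap, and with a stricter filter on low values it passed (0.17, adjusted p = 0.044). BID, on chromosome 22 (17734138 to 17774665), is cleaved by caspase 8 and carries the death receptor signal to the mitochondrion. It was at 4.98, 5.45 and 5.61 CPM in DJL1 libraries and at 5.28, 4.39, 5.15 and 5.0 CPM in CTRL libraries, with overlap, a log2 fold change of 0.11 and a 95% interval of -0.13 to 0.36 (edgeR, adjusted p = 0.44). HRK, on chromosome 12 (116856144 to 116881441), is best known as a death gene of neurons. It was at 37.0, 37.4 and 42.1 CPM in DJL1 libraries and at 38.7, 39.1, 37.9 and 39.6 CPM in CTRL libraries. The CTRL values lie inside the DJL1 range, the fold difference was 1.00 with a 95% interval of 0.92 to 1.08 (edgeR, adjusted p = 0.997), and the sign of the fold change turned with the processing.

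Per kb of exon, the order of the levels was nearly the same in both groups. In DJL1 libraries MCL1 came first with 135 ± 7.34 CPM per kb, then BAK1 with 55.5 ± 3.06, BCL2L1 with 19.8 ± 1.30, BIK with 16.5 ± 2.11 and BAD with 12.5 ± 0.57 CPM per kb (SD, n = 3). In CTRL libraries MCL1 had 124 ± 1.52, BAK1 47.9 ± 0.92, BCL2L1 21.6 ± 0.61, BAD 11.4 ± 0.59 and BIK 8.97 ± 0.30 CPM per kb (SD, n = 4). BIK thus stood above BAD in DJL1 and below it in CTRL. BCL2L11 and HRK overlapped in DJL1 at 6.82 ± 0.34 and 6.71 ± 0.49 CPM per kb, whereas in CTRL BCL2L11, at 5.07 ± 0.15, lay below HRK, at 6.71 ± 0.12 CPM per kb. In both groups BID, BCL2 and BCL2A1 came last in that order, and every other pair of neighbours differed without overlap between libraries.

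The 5 BH3-only members cover only part of their class, which also holds BBC3 (94.4 CPM per kb in DJL1 and 38.1 in CTRL), PMAIP1 (169 in DJL1 and 80.3 in CTRL) and BMF (2.42 in DJL1 and 1.86 in CTRL). The 5 members alone summed to 41.2, 45.9 and 46.3 CPM per kb in DJL1 libraries, against 34.3, 33.3, 33.5 and 34.5 CPM per kb in CTRL libraries. Set against the 4 summed survival members of the same library, that was 26.2%, 31.3% and 28.9% in DJL1 and 23.3%, 22.9%, 23.3% and 23.5% in CTRL. DJL1 values of both quantities lay above all CTRL values. Within the sum of the 5, BIK held 37.0 ± 2.58% in DJL1 and 26.5 ± 1.26% in CTRL, while HRK held 15.1 ± 0.90% in DJL1 and 19.8 ± 0.35% in CTRL (SD).

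**Figure D3:**
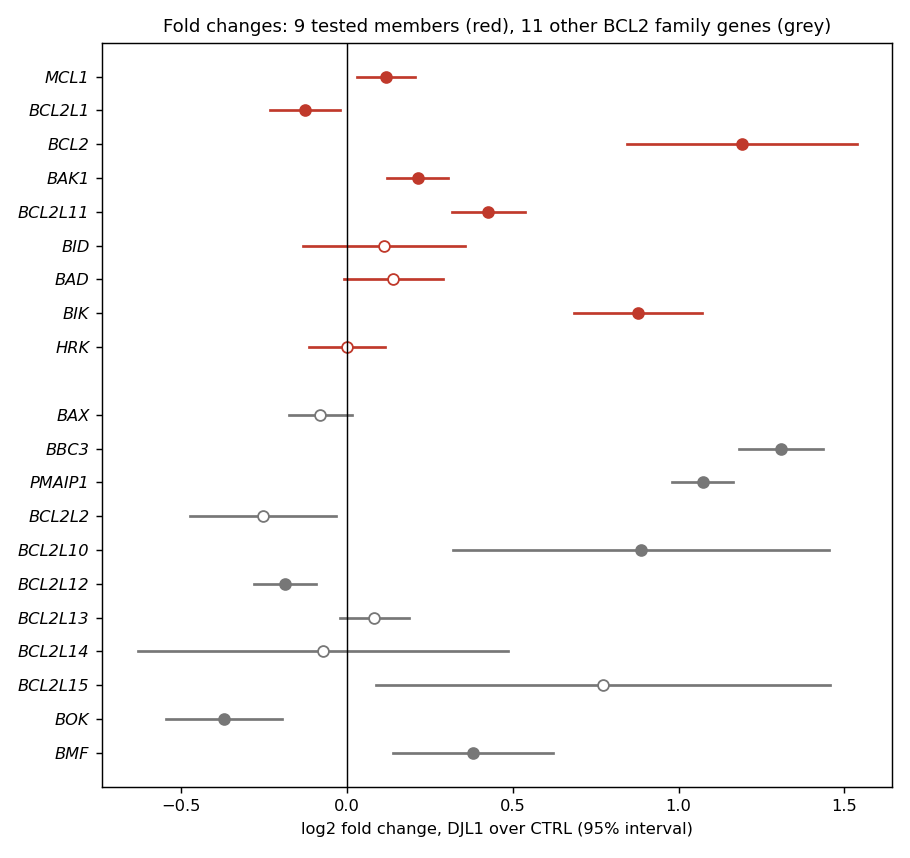
Log2 fold change of DJL1 over CTRL (horizontal axis) with its 95% interval for the 9 tested members (red) and the 11 other BCL2 family genes (grey), filled where the edgeR adjusted p was under 0.05. BCL2 at 1.19 and BIK at 0.88 lead the members, and BBC3 at 1.31 and PMAIP1 at 1.07 lead the other genes.

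The rest of the family gives the setting. Of its 11 other genes, all tested, 4 were higher, 2 lower and 5 not called, with a median log2 fold change of 0.08, where 27.0% of all genes tested were higher and 25.1% lower. The p53 targets BBC3 (PUMA) and PMAIP1 (NOXA) encode BH3-only proteins. BBC3 averaged 198 ± 21.3 CPM in DJL1 and 79.7 ± 3.38 CPM in CTRL, a log2 fold change of 1.31, and PMAIP1 averaged 354 ± 20.2 CPM in DJL1 and 168.5 ± 4.41 CPM in CTRL, a log2 fold change of 1.07 (SD). BAX, the other pore former and also a p53 target, averaged 136 ± 9.39 CPM in DJL1 and 144 ± 1.46 CPM in CTRL and was not called (log2 fold change -0.08, edgeR adjusted p = 0.15), but it passed without DJL1 replicate 3 (-0.15) and without the filter on low counts. BOK, a further pore-forming relative, had a log2 fold change of -0.37 and BCL2L12 of -0.19, both called lower. BMF, a BH3-only gene, rose by 0.38 but lost its call without DJL1 replicate 1 (0.20). The low BCL2L10 rose by 0.89 but lost its call without DJL1 replicate 3 (0.61), with thinned counts and with the replicate number as a block. BCL2L2, which encodes the survival protein BCL-W, was not called at -0.25 (edgeR, adjusted p = 0.052), but it was called lower with RLE factors, with no filter, with DESeq2, with limma-voom and with thinned counts, and without DJL1 replicate 2 (-0.40). BCL2L13 (0.08), BCL2L14 (-0.07) and BCL2L15 (0.77) were not called either, although BCL2L13 passed without DJL1 replicate 1 (0.12) and BCL2L15 without CTRL replicate 4 (0.96) and with limma-voom.

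Death receptor genes, whose signal BID passes on, were mostly higher in DJL1. Of 12 genes 10 were tested, 8 were higher and none was lower by edgeR, and the median log2 fold change was 0.39, against 27.0% higher, 25.1% lower and a median of 0.01 over all genes tested. DESeq2, limma-voom and an unadjusted edgeR p under 0.05 gave the same counts of 8 higher and 0 lower. The TRAIL receptor gene TNFRSF10B averaged 165 ± 8.07 CPM in DJL1 and 77.8 ± 3.59 CPM in CTRL, a log2 fold change of 1.09. FAS, the receptor of FAS ligand, averaged 20.1 ± 1.80 CPM in DJL1 and 6.23 ± 0.71 CPM in CTRL, a log2 fold change of 1.69. The second TRAIL receptor gene TNFRSF10A rose by 1.02, the initiator caspase gene CASP10 by 0.89 and CASP8, whose product cleaves BID, by 0.48. FAS and TNFRSF10B are also known p53 targets. RIPK1, named because its call depended on 1 library, lost it without CTRL replicate 1 (0.15), CTRL replicate 2 (0.14) or DJL1 replicate 2 (0.11). Its call was also lost with no filter, by voom with a variance per group and with the replicate number as a block.

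The caspase and related genes went both ways. Of 18 caspase, apoptosome and inhibitor of apoptosis genes, 4 were higher, 8 lower and 6 not called, with a median log2 fold change of -0.13, again beside 27.0% higher and 25.1% lower over all genes. APAF1, the scaffold of the apoptosome, averaged 55.3 ± 2.49 CPM in DJL1 and 30.9 ± 1.06 CPM in CTRL, a log2 fold change of 0.84. In the other direction, CYCS, which encodes cytochrome c, averaged 226 ± 6.13 CPM in DJL1 and 327 ± 10.1 CPM in CTRL, a log2 fold change of -0.54, and CASP2 had one of -0.48. CASP9, the initiator caspase of the apoptosome, was not called (-0.14, edgeR adjusted p = 0.12), but it passed without DJL1 replicate 2 (-0.20). ENDOG, among the 8 lower genes and named for the same reason, lost its call without CTRL replicate 1 (-0.38), CTRL replicate 2 (-0.41) or DJL1 replicate 1 (-0.37). Its call was also lost by voom with a variance per group and with the replicate number as a block.

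**Figure D4:**
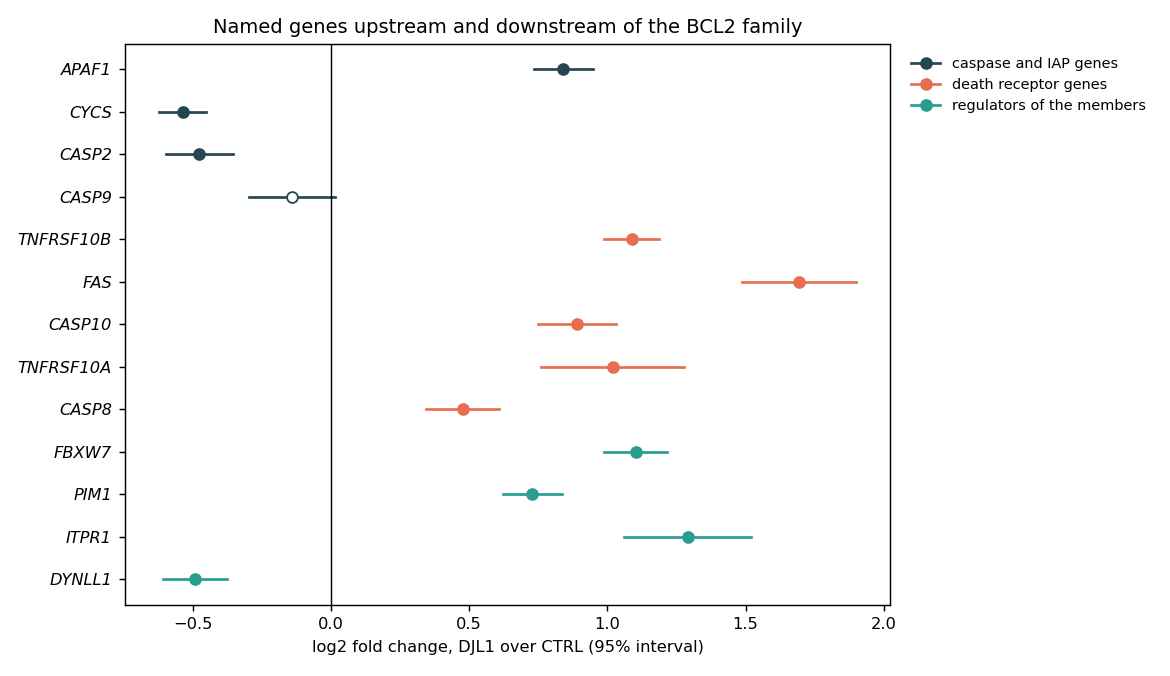
Log2 fold change of DJL1 over CTRL (horizontal axis) with its 95% interval for the named caspase, death receptor and regulator genes, coloured by list and filled where the edgeR adjusted p was under 0.05. The death receptor genes shown all lie above 0, from CASP8 at 0.48 to FAS at 1.69, while CYCS, CASP2 and DYNLL1 lie below it.

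Of 16 genes known to act on a member, 6 were higher, 3 lower and 7 not called, with a median log2 fold change of 0.09, beside the same 27.0% and 25.1% over all genes. FBXW7, part of a ubiquitin ligase that marks the MCL1 protein for destruction, averaged 61.8 ± 2.66 CPM in DJL1 and 28.8 ± 1.59 CPM in CTRL, a log2 fold change of 1.10. PIM1, a kinase that phosphorylates BAD, rose by 0.73, and ITPR1, the calcium channel of the endoplasmic reticulum that BCL2 binds, rose by 1.29. DYNLL1, the dynein light chain that anchors BIM, had a log2 fold change of -0.49. Of the FOXO transcription factors in the list, which are known to activate BCL2L11 and were named here after their values were seen, FOXO3 averaged 73.8 ± 4.27 CPM in DJL1 and 60.0 ± 1.88 CPM in CTRL (log2 fold change 0.30) and was called. FOXO1 averaged 35.9 ± 1.40 CPM in DJL1 and 33.6 ± 0.97 CPM in CTRL (log2 fold change 0.09; edgeR, adjusted p = 0.14) and was called only with the stricter filter among the alternatives. USP9X removes ubiquitin from MCL1 and is named because its call varied. It lost the call without DJL1 replicate 1 (0.08), with no filter and with the replicate number as a block. YWHAZ, which binds phosphorylated BAD, was not called by edgeR (-0.09, adjusted p = 0.084) but was called by DESeq2, by limma-voom, by voom with a variance per group, with no filter, and without DJL1 replicate 1 (-0.13) or 3 (-0.11).

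Promoter sequences of RefSeq (GRCh38.p14, 300 bases around the gene start) were matched for 8 of the 10 members. None was matched for MCL1 or BIK, which therefore have no motif result. Each was searched on both strands for the interferon-response core (GAAA, any 2 bases, GAAA), the FOXO motif GTAAACA, the E2F forms TTTCGCGC and TTTGGCGC, the GC box GGGCGG, the cyclic AMP element TGACGTCA, the CCAAT box, the C/EBP-ATF element TGATGCAA, and by name the p53 decamer and the NF-kB site. The GC box was found in 5 of the 8, against 44.95% of all 35116 promoters, and the CCAAT box in 3 of the 8, against 34.6%. The table places the BCL2 window at a start inside the gene span given above, wholly within the gene, and the BID window lies mostly inside the gene as well, so neither describes the outermost start. The windows of BCL2L1 and BCL2 held none of these motifs. Those of BID, BAD and HRK held GC boxes, with a CCAAT box in BAD. The promoters of BCL2L11 and BAK1 are printed because both genes rose and each held a motif that no other matched member held, and that of BCL2A1 because it alone held the interferon-response core. Capitals mark every match.
BCL2L11, chr2:111120664-111120963, plus strand: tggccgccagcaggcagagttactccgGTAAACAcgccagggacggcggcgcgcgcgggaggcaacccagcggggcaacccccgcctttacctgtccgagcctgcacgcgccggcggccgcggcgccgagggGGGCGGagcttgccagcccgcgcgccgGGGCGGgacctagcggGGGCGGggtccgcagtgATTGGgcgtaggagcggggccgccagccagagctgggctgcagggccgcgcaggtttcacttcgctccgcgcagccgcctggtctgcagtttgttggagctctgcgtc
BAK1, chr6:33580227-33580526, minus strand: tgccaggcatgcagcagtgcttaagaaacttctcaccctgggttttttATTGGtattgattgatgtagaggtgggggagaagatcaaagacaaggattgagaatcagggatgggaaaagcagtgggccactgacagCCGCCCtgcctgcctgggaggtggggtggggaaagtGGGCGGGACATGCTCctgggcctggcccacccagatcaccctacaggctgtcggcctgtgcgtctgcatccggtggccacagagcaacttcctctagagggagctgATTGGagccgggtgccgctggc
BCL2A1, chr15:79971147-79971446, minus strand: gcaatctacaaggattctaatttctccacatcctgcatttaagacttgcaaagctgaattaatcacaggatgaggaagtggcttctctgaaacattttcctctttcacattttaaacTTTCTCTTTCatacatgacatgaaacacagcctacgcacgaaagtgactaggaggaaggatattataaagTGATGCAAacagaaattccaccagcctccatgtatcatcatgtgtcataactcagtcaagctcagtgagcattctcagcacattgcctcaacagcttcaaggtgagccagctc
In BCL2L11 the FOXO match begins 223 bases before the start, a motif that 3.42% of all promoters hold, followed by 3 GC boxes and a CCAAT box. In BAK1 a p53 decamer, held by 6.63% of all promoters, begins 73 bases before the start and overlaps a GC box. In BCL2A1 the interferon-response core, held by 3.57% of all promoters, begins 133 bases before the start and the C/EBP-ATF element, held by 0.87%, 63 bases before it. The BCL2L11 window is 74.7% G or C with 39 CpG pairs, the BAK1 window 58.7% with 7 and the BCL2A1 window 41% with 2, against medians of 58.7% and 14 over all promoters. A match is a stretch of letters and shows no binding.

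The genes whose pattern over the 7 libraries was closest to that of BIK or BCL2L11, whose adjusted p were the smallest among members, were sought among 13180 genes of at least 5 CPM, by the root mean squared difference of centred log2 CPM. For BIK they were L3MBTL3 (0.049), LMNA (0.050) and MMP2 (0.054), with log2 fold changes of 0.88, 0.91 and 0.89 against 0.88 for BIK. For BCL2L11 they were RCL1 (0.024), JPH3 (0.025) and CCDC50 (0.028), with 0.43, 0.46 and 0.42 against 0.43 for BCL2L11. Over 7 libraries in 2 groups, genes of like fold change come out close, so closeness does not show shared regulation.

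**Figure D5:**
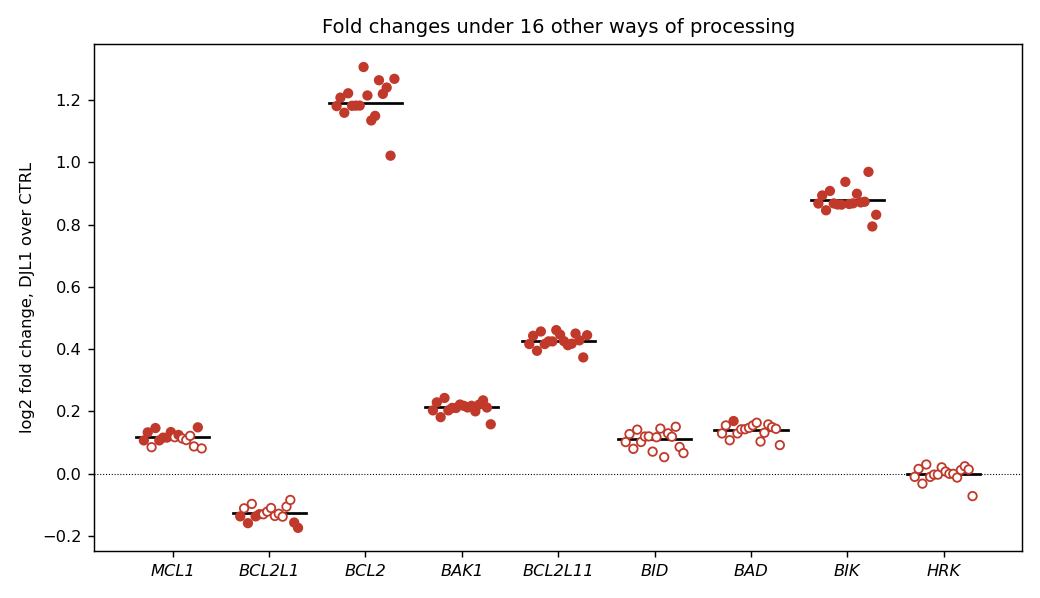
Log2 fold change of DJL1 over CTRL (vertical axis) of the 9 tested members, with a black line for the value in the text and a point for each of 16 other ways of processing, filled where the adjusted p was under 0.05. BCL2, BAK1, BCL2L11 and BIK are filled at every point, MCL1 and BCL2L1 at some, and BID and HRK at none.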

How the data were processed

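RNA was sequenced from 3 DJL1 and 4 CTRL libraries, grouped by the sample titles. Per the labels' protocols, libraries were made from 200 ng RNA with poly(A) selection and a directional kit. The authors deposited raw counts per gene symbol. Per the submitters' processing notes, the tools were featureCounts (Subread 1.5.0), HISAT2 2.2.1 and Trim Galore 0.4.0, and the build GRCh38 (hg38). The sources used here do not give strand setting, annotation or handling of multi-mapping reads. The authors' deposited table of the comparison gives a log2 fold change and, per the file headers, an adjusted p-value for each gene, used only where named; its base was taken as 2. A deposited table of log values with no stated base was not used.

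Counts were filtered with filterByExpr (minimum count 10, minimum total 15), which left 26062 genes, scaled by TMM and compared with edgeR 4.0.16 (quasi-likelihood, robust, 2-sided, Benjamini-Hochberg over all genes, threshold 0.05) in R 4.3.3. DESeq2 1.42.0 and limma 3.58.1 were alternatives. CPM use TMM-scaled library sizes, and the log2 CPM used to compare patterns a prior count of 2. SE and 95% intervals come from the F statistic. Exon lengths are from GENCODE 29. The fit was also run on simulated counts, with a small share of genes changed and the same spread in both groups. These data have neither trait, so that run does not cover them. Named genes are all members, all other BCL2 family genes, the 4 smallest adjusted p of each further list with CASP9, APAF1 and CASP8, and for the 2 members of smallest adjusted p the 3 genes most like each; 2 genes under this rule are not reported here. The members and lists were chosen with earlier results of these data known. Same-numbered DJL1 and CTRL libraries did not deviate together (r = -0.039 to -0.0089), so numbers were not taken as pairs.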

Additional observations from a re-analysis of the deposited data

Results flagged for a closer look

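BIK in the CTRL libraries held the only value set apart from its own group. CTRL replicate 2, at 8.97 CPM, lay above the other CTRL libraries at 8.34 to 8.45 CPM, a gap of 0.839 of the group's range and past Dixon's critical value for 4 samples. Among 23 quantities examined in this way, chance flags about 1 in 20. Without CTRL replicate 2 the log2 fold change of BIK was 0.90 (edgeR, adjusted p = 9.3e-06).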

How the results depend on the processing

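Over 16 alternatives, BCL2 (1.02 to 1.31), BIK (0.79 to 0.97), BCL2L11 (0.37 to 0.46) and BAK1 (0.16 to 0.24) kept direction and call in log2 fold change, and BID was called in none. MCL1 was called in 9 of the 16 (0.08 to 0.15) and BCL2L1 in 6 (-0.17 to -0.08), where the cause was not tested. HRK changed sign with library size alone (0.016), a stricter filter (0.030), thinned counts (0.021) and the replicate block (0.0071), and without a library it ran from -0.072 to 0.024. Members called numbered 4 to 6 under the alternatives, and 4 with the replicate number as a block, where MCL1 (adjusted p = 0.10) and BCL2L1 (adjusted p = 0.17) missed the threshold. All genes called ran from 11998 to 14097 with 1 library left out and from 11477 to 14272 otherwise. With raw counts in place of counts per kb, MCL1 made up 90.0% of the survival genes in DJL1 and 88.8% in CTRL, BCL2L1 9.27% in DJL1 and 10.8% in CTRL, and BCL2 0.75% in DJL1 and 0.35% in CTRL, which follows from their different lengths. Depth limits BCL2A1.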
